A study of Homo sapiens with 24 samples.

Results

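MPO, PRTN3, CTSG, CLC, MNDA and VNN1 are 6 genes of granules and myeloid maturation, taken from the 14884 genes named on the arrays by their exact symbols, with 1 array feature each. Their messenger RNA was measured on 24 Affymetrix arrays in the human acute myeloid leukaemia lines HL60, KG1a, MOLM14 and U937. In each line 3 arrays (lettered A to C) came from cells given 10 mM metformin, an inhibitor of respiratory complex I, for 24 h, and 3 from untreated control cells. The labels class KG1a and MOLM14 as high in oxidative phosphorylation and HL60 and U937 as low, and class metformin-treated KG1a and MOLM14 as low. No allele or other agent is named in the labels, and every group is a single line that carries its own leukaemia's mutations in treated and control cells alike. The labels do not state that replicate arrays were separate cultures, so errors and p-values reflect array-to-array spread alone, which may be technical. Values are log2 signals as deposited, on which 1 unit is a doubling, and the number of arrays limits their precision. Since RNA came from whole cultures, fewer cells expressing a gene and less RNA per cell cannot be told apart.

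The members belong to successive steps of myeloid development. Promyelocytes fill their primary (azurophil) granules with the peroxidase MPO, which makes hypochlorous acid, and with serine proteases such as proteinase 3 (PRTN3) and cathepsin G (CTSG). Transcription of these genes is switched on by PU.1 (encoded by SPI1), C/EBP factors and MYB, and is shut off as cells mature beyond the promyelocyte. CLC encodes galectin-10, the protein of Charcot-Leyden crystals in eosinophils and basophils. MNDA encodes a nuclear PYHIN-family protein of granulocytes and monocytes. VNN1 encodes vanin-1, a membrane-anchored pantetheinase that releases pantothenate, the precursor of coenzyme A, and cysteamine.

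The members were chosen with their levels in the lines and their metformin changes in HL60 and MOLM14 already seen, so those values are given as a description, with no test. Only the metformin changes in KG1a and U937 are tested here. Of the members, 6 of 6 reached the median of all array features (4.02) in at least 1 group mean and entered the fit of 10641 genes. CLC did so only through HL60 and VNN1 only through untreated MOLM14. Means under 4.02 lie where signals of absent and scarce transcripts cannot be separated and where differences are compressed.

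The lines differed in which of these genes they expressed. KG1a had none of the 6 above 4.02: its group means lay between 3.17 and 3.81. Its identity as a CD34-positive line held, with CD34, a surface protein of stem and progenitor cells, at 11.28 in metformin and 11.24 in control KG1a, against at most 3.61 in any group of the other lines. SPI1 was lowest in KG1a as well, at 4.42 with metformin and 4.65 without, while the other groups lay between 7.18 and 8.10. The monocyte marker CD14 lay under 4.02 in 8 of 8 groups, in MOLM14 and U937 too. CSF1R, the receptor for M-CSF, was highest in MOLM14 (5.33 with metformin and 5.99 in controls) and at most 4.37 in the other lines.

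**Figure D1:**
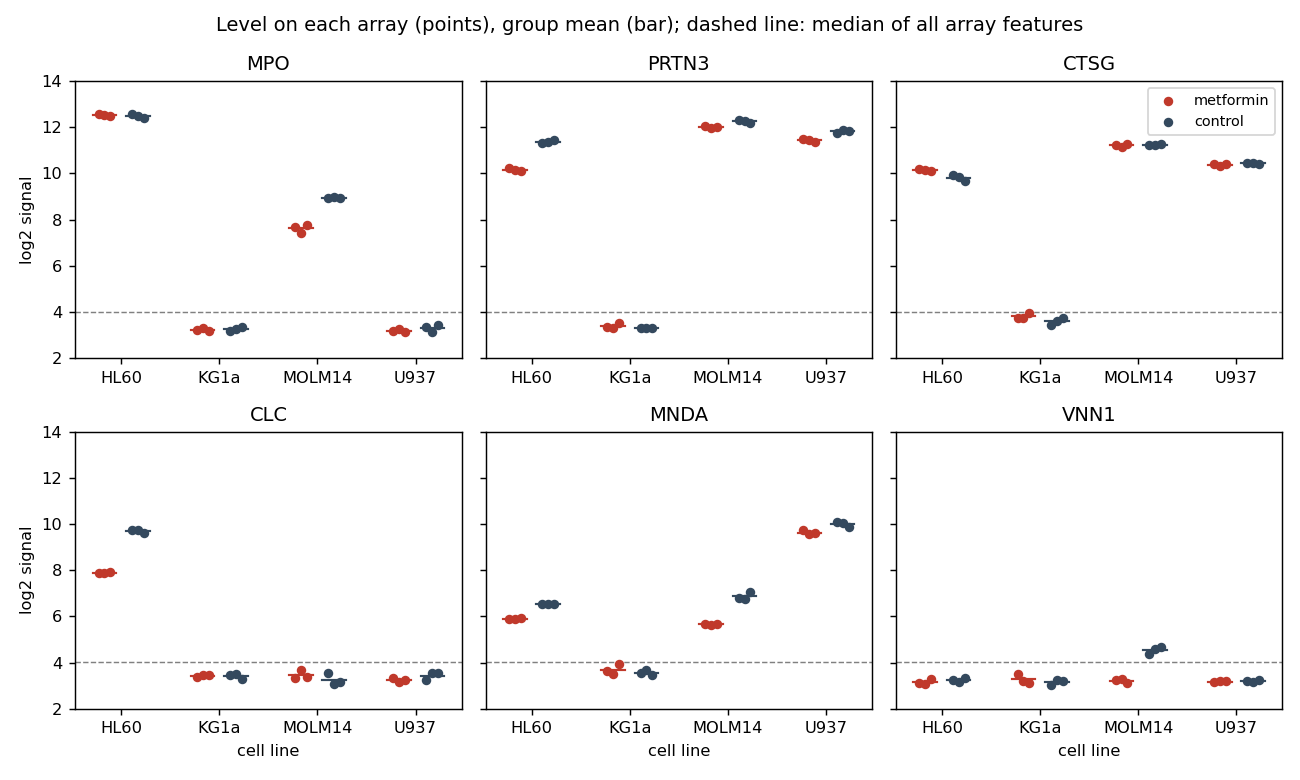
Log2 signal (vertical axis) of the 6 genes on each of 24 arrays by cell line (horizontal axis), metformin in red and control in dark blue-grey, with a bar at each mean of 3 arrays and a dashed line at 4.02, the median of all array features. KG1a stays under the line for every gene, MPO is high in HL60 and MOLM14, CLC in HL60 and MNDA in U937, and VNN1 passes the line only in MOLM14 controls.

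MPO was expressed in HL60 and MOLM14 and not above 4.02 in KG1a or U937. In untreated cells its mean was 12.48 ± 0.09 (SD, n = 3) in HL60, 8.93 ± 0.03 in MOLM14, 3.30 ± 0.16 in U937 and 3.26 ± 0.08 in KG1a. The arrays of HL60, MOLM14 and U937 did not overlap in that order, and those of U937 and KG1a did. With metformin MOLM14 arrays read 7.68, 7.42 and 7.76, against 8.92, 8.96 and 8.92 in MOLM14 controls. The groups did not overlap, and the difference of -1.32 ± 0.09 (log2, SE) left 40.2% of the control signal. In HL60 metformin arrays read 12.57, 12.52 and 12.49, against 12.58, 12.47 and 12.40 in controls. There the groups overlapped, and the change was 0.04 ± 0.09, so the change in MOLM14 was lower than that in HL60 by a difference of -1.36 ± 0.13. HL60 lies near the upper end of the scale, whose highest value is 14.2. In U937 the tested change was -0.11 ± 0.09 (limma adjusted p = 0.463) and in KG1a -0.03 ± 0.09 (limma adjusted p = 0.914), with these group means between 3.19 and 3.30.

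PRTN3 was expressed in HL60, MOLM14 and U937 and was lower with metformin in each of them. In HL60 metformin arrays read 10.24, 10.15 and 10.09, against 11.31, 11.34 and 11.45 in HL60 controls. These groups did not overlap and differed by -1.21 ± 0.07 (log2, SE), so 43.4% of the control signal remained. In MOLM14 the values were 12.04, 11.96 and 11.99 with metformin, against 12.31, 12.29 and 12.20 in controls, again without overlap and with a smaller difference of -0.26 ± 0.07. In U937 metformin arrays read 11.50, 11.46 and 11.35, against 11.77, 11.86 and 11.83 in controls. The tested fall of -0.38 ± 0.07 in U937 passed (limma adjusted p = 0.000804, lower on 3 of 3 arrays), and the adjusted p lay between 6.21e-05 and 0.0327 over all alternatives. In KG1a the level was 3.40 with metformin and 3.30 without, and the change of 0.10 ± 0.07 did not pass (limma adjusted p = 0.576). Among untreated lines MOLM14 (12.26 ± 0.06) stood above U937 (11.82 ± 0.04), U937 above HL60 (11.36 ± 0.07) and HL60 above KG1a (3.30 ± 0.01), with no overlap between neighbours.

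CTSG, the protease stored beside PRTN3, ranked the untreated lines in the same order, and in HL60 its difference with metformin had the opposite sign to that of PRTN3. Its untreated means were 11.25 ± 0.02 in MOLM14, 10.43 ± 0.03 in U937, 9.81 ± 0.14 in HL60 and 3.59 ± 0.14 in KG1a, with no overlap between neighbours. In HL60 metformin arrays read 10.21, 10.15 and 10.11, against 9.91, 9.86 and 9.65 in controls. They were higher without overlap, by 0.35 ± 0.08, in the line where PRTN3 differed by -1.21 ± 0.07 in the other direction. The HL60 value was 0.27 without HL60 control C and the other arrays that stand apart. In MOLM14 the change was -0.03 ± 0.08, and the groups overlapped. In U937 the tested change was -0.05 ± 0.08 (limma adjusted p = 0.735), and in KG1a it was 0.21 ± 0.08 with both means under 4.02 (limma adjusted p = 0.19). Over the 8 group means PRTN3 and CTSG correlated at r = 0.99, a description in which KG1a lies far below the other lines.

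CLC was above 4.02 in HL60 alone among these lines. HL60 metformin arrays read 7.88, 7.88 and 7.92, against 9.76, 9.73 and 9.60 in HL60 controls. The groups did not overlap, and the difference of -1.80 ± 0.11 (log2, SE) left 28.7% of the control signal. Group means in the other lines lay between 3.25 and 3.46. There the tested changes were -0.19 ± 0.11 in U937 (limma adjusted p = 0.269) and 0.01 ± 0.11 in KG1a (limma adjusted p = 0.988). In MOLM14 the change was 0.21 ± 0.11, with both means under 4.02 and arrays that overlapped.

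MNDA was highest in U937 and was lower with metformin in the 3 lines that expressed it. In MOLM14 metformin arrays read 5.65, 5.64 and 5.67, against 6.81, 6.74 and 7.06 in MOLM14 controls. The difference without overlap was -1.22 ± 0.10, or 43% of the control signal. In HL60 the values were 5.89, 5.88 and 5.91 with metformin, against 6.54, 6.53 and 6.53 in controls, a difference of -0.64 ± 0.10 without overlap. In U937 metformin arrays read 9.74, 9.55 and 9.61, against 10.07, 10.06 and 9.86 in controls. This tested fall of -0.36 ± 0.10 passed (limma adjusted p = 0.0118, lower on 3 of 3 arrays). It lost the call without U937 control A (adjusted p = 0.0562), without U937 control B (0.0535) and in a limma fit of the 6 U937 arrays alone (0.0555). In KG1a the level was 3.69 with metformin and 3.57 without (0.12 ± 0.10, limma adjusted p = 0.63). The order of MOLM14 and HL60 turned with treatment: with metformin HL60 (5.89) stood above MOLM14 (5.65), and in controls MOLM14 (6.87) stood above HL60 (6.53), without overlap in either.

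VNN1 was above 4.02 only in untreated MOLM14. MOLM14 metformin arrays read 3.24, 3.29 and 3.11, against 4.38, 4.59 and 4.67 in MOLM14 controls. The groups did not overlap and differed by -1.34 ± 0.10. The treated mean of 3.21 lies within the range of group means in the other lines (3.17 to 3.28), where differences are compressed. VNN1 entered the fit only through MOLM14 controls, the group from which the fall is measured. It was also chosen with this fall already seen, so the size of the difference carries little weight. With metformin the 4 lines overlapped in VNN1. The tested changes were -0.03 ± 0.10 in U937 (limma adjusted p = 0.896) and 0.11 ± 0.10 in KG1a (limma adjusted p = 0.671), and the HL60 change was -0.09 ± 0.10. VNN2, the neighbouring vanin gene, did not reach 4.02 in any group.

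**Figure D2:**
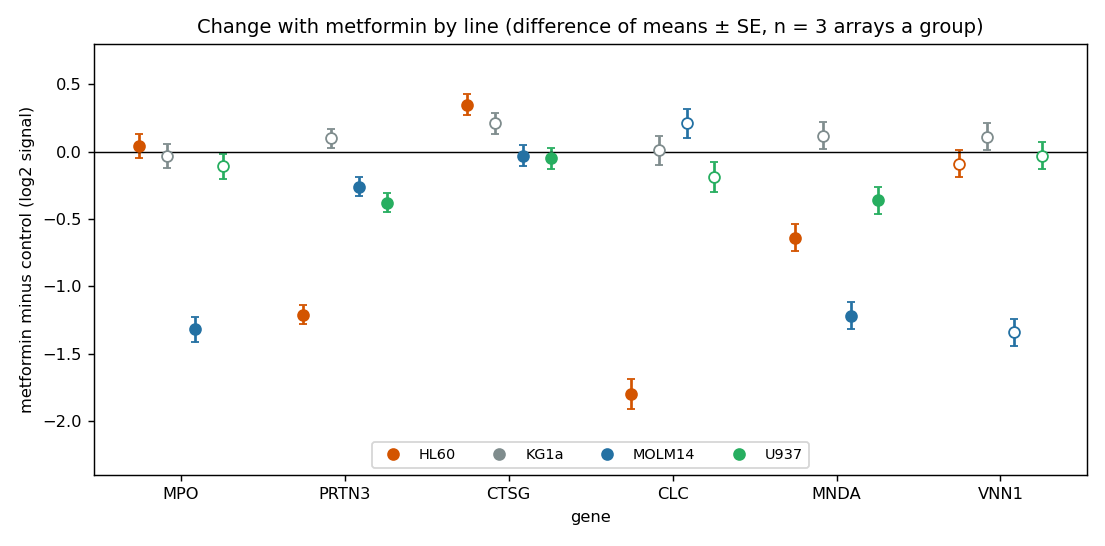
Metformin minus control (log2 signal, vertical axis) of the 6 genes (horizontal axis) in HL60, KG1a, MOLM14 and U937, as differences of means of 3 arrays with SE bars. Open points have at least 1 group mean under 4.02. PRTN3 and CLC are lowest in HL60, MPO, MNDA and VNN1 in MOLM14, and CTSG lies at or above -0.05 in all 4 lines.

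The metformin arrays lay wholly below the controls for 3 of 6 members in HL60 (PRTN3, CLC and MNDA), where 16.0% of all tested genes did so, and wholly above for 1 (CTSG), against 21.2%. At the adjusted threshold limma called 25.1% of all genes in HL60, 5.06% in MOLM14 and 17.2% in U937. In MOLM14 the count was 4 of 6 (MPO, PRTN3, MNDA and VNN1), against 13.0% of all tested genes. Nothing is read from these shares, since the members were chosen from these changes. In U937 it was 2 of 6 (PRTN3 and MNDA), against 16.3%, and in KG1a 0 of 6, against 13.7%, with 2 of 6 (PRTN3 and CTSG) wholly above controls at levels under 4.02, against 7.31%. As called by limma, U937 had 2 of 6 members lower, where 9.74% of all genes were. KG1a had 0 of 6 members called, where 2.49% of all genes were. By limma without adjustment, 1 of the 6, CTSG, had a p under 0.05 in KG1a. The share of all genes without adjustment was not counted here.

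Of the members, 4 have a RefSeq promoter entry, and the 250 bases upstream of the start are shown because PRTN3 and CTSG share their levels by line but not their change in HL60, while CLC and MNDA were lower there with PRTN3. Capitals mark 3 sets of letters on either strand: GAGGAA (the core of PU.1 sites), AACNG (MYB) and TTGCNNAA (C/EBP). Sequences are from RefSeq, GRCh38.p14, 5′ to 3′ on the gene's strand.
PRTN3, chr19:840749-840998, plus strand: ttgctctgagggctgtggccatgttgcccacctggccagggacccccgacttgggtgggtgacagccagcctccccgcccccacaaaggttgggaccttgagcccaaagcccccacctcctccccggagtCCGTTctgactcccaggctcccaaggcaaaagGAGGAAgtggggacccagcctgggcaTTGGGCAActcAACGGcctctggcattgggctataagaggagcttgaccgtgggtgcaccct
CTSG, chr14:24576251-24576500, minus strand: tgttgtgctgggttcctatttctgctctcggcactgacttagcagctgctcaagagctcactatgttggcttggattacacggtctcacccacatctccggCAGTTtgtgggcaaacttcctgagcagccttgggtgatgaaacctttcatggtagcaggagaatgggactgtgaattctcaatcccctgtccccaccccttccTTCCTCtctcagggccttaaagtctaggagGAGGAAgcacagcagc
CLC, chr19:39738030-39738279, minus strand: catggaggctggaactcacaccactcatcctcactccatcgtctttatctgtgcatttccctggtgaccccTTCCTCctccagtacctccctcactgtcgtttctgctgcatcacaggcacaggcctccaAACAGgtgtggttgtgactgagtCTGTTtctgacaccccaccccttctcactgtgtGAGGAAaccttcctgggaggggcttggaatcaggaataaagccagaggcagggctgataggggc
MNDA, chr1:158831101-158831350, plus strand: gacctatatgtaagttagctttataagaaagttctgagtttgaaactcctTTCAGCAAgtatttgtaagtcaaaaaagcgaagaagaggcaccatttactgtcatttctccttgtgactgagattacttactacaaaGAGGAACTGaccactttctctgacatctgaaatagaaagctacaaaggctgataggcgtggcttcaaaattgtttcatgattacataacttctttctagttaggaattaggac
GAGGAA was found in 4 of these 4 windows and in 23.6% of 35116 windows of the same length, and AACNG in 4 of 4 against 70.6%. TTGCNNAA was found in PRTN3 and MNDA, against 9.1% of all windows. In PRTN3 the GAGGAA match begins 88 bases upstream and the C/EBP match 62 bases upstream. In MNDA the GAGGAA and AACNG matches overlap by 2 bases. These matches are letters in a window. They were not tested as binding sites or for any part in the changes with metformin.

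The genes that lie beside the members gave a further comparison, chosen after the values were seen. Within 3 protein-coding genes of a member, 15 genes were tested. By limma, 6 were lower and 0 higher in HL60 (EPX, SUPT4H1, PTBP1, PLPPR3, AZU1 and MED16), and 4 were lower (SUPT4H1, PTBP1, PLPPR3 and FBL) and 1 higher (TAAR5) in U937. In MOLM14 1 was lower (EPX), and in KG1a 0 were called. Of all genes, limma called 9.56% lower in HL60, and 9.74% lower and 7.46% higher in U937. It called 2.57% lower in MOLM14, and 2.49% in either direction in KG1a. At an unadjusted p under 0.05, limma gave 6 lower and 0 higher in HL60 and 2 lower and 0 higher in KG1a. It gave 5 lower and 1 higher in MOLM14 and 4 lower and 1 higher in U937. The share of all genes at that p was not counted here. AZU1, which encodes the related but catalytically inactive azurocidin, is next to PRTN3 and was highest in the same 3 lines. AZU1 was lower in HL60 by a small amount, at 6.60, 6.79 and 6.72 with metformin against 7.20, 6.93 and 6.77 in controls. That fall of -0.27 ± 0.10 was at the threshold (limma adjusted p = 0.0498), its arrays overlapped, and it lost the call without any of 22 arrays, every array but HL60 control C and KG1a control A. In U937 AZU1 did not pass (0.08 ± 0.10, limma adjusted p = 0.64), where PRTN3 fell. PLPPR3, on the far side of AZU1, fell in HL60 by -0.68 ± 0.09 (limma adjusted p = 3.52e-06) and in U937 by -0.37 ± 0.09 (limma adjusted p = 0.00482). Near MPO, SUPT4H1 fell in HL60 by -0.34 ± 0.08 (limma adjusted p = 0.0021), where MPO differed by 0.04 ± 0.09. The lactoperoxidase gene LPO read 6.40 with metformin and 6.11 in control MOLM14 (0.30 ± 0.10, limma adjusted p = 0.0891), and TSPOAP1 read 6.98 with metformin and 7.35 in control MOLM14 (-0.37 ± 0.11, limma adjusted p = 0.0513).

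Other granule and maturation genes were examined as well, with 7 tested genes of coenzyme A synthesis, the pathway that vanin-1 feeds. The lists were chosen with earlier results of these data known, so their counts and p-values are no independent check of the members' pattern. Lists of 121 genes were set beside the members, of which 69 are named on the arrays here and 50 were tested, and none of the 6 members is counted among them. Genes not named here, among them ELANE, RNASE2, RNASE3, CEBPA, CEBPE, VNN3, IFI16, LGALS1 and the subunits of the NADPH oxidase, were not analysed here. All tests in the following are limma's, with p adjusted over the 10641 genes. The metformin change differed between the 4 lines for 13 of the 50 genes (26%), against 10.0% of all genes. Among the 13 are CEACAM6 and MMP8, which entered the fit only through control U937, the group from which their fall is measured.

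**Figure D3:**
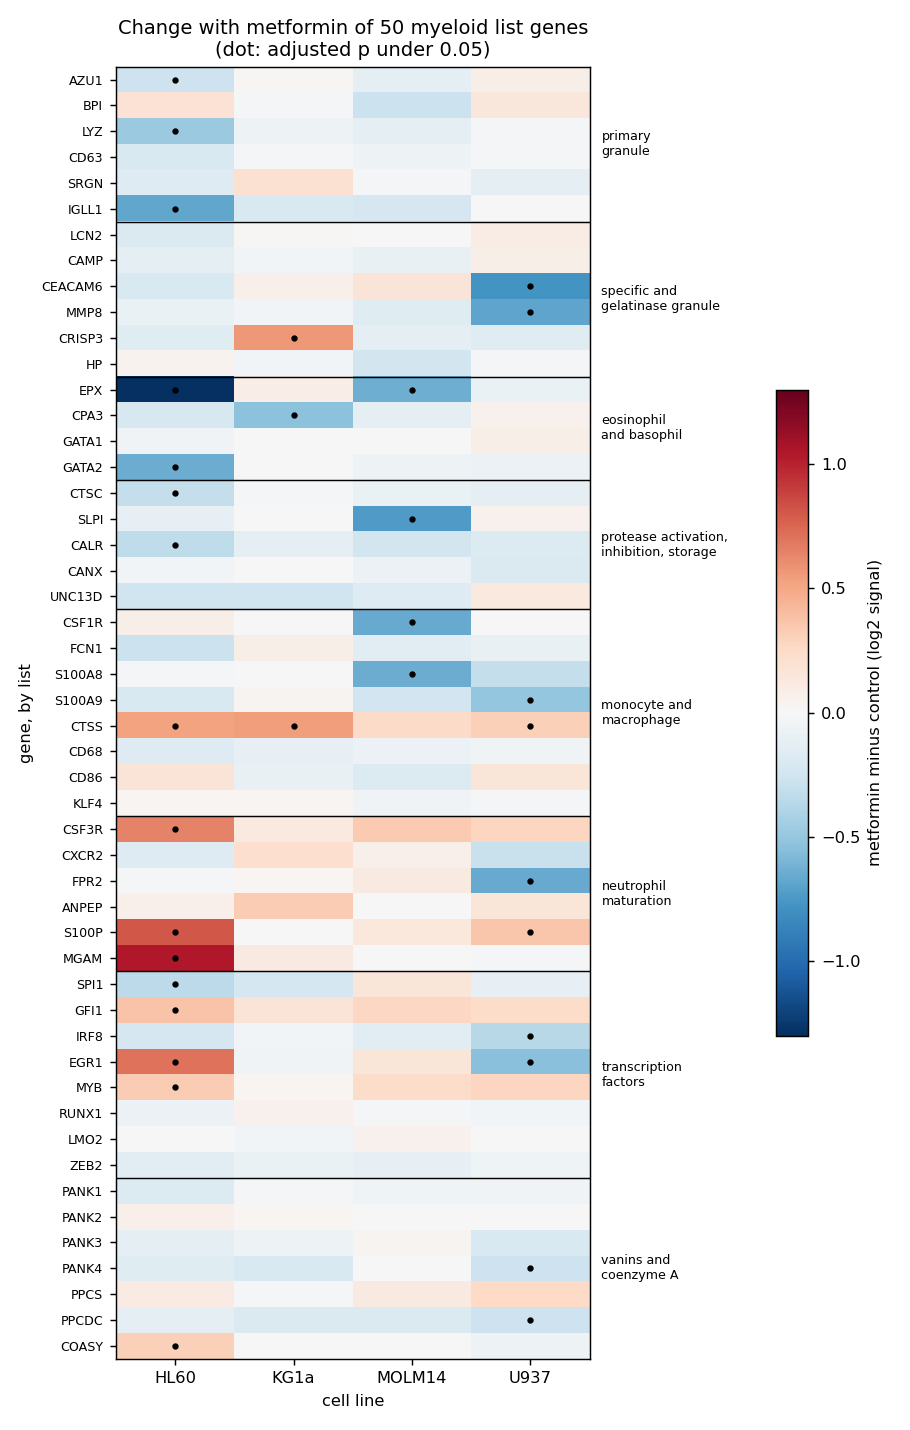
Metformin minus control (log2 signal, colour) of 50 tested genes of 8 myeloid lists (rows) in the 4 lines (columns), with a dot where the adjusted p passed 0.05. HL60 has the most dots, with EPX lowest and MGAM highest, and each line has a different set.

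In HL60, 8 of 50 list genes rose and 8 fell, against 15.5% and 9.56% of all genes, with a list median of -0.12 against 0.00 over all genes. After quantile normalization 8 were higher and 13 lower. Of 4 tested eosinophil and basophil genes, 2 fell in HL60. EPX, the eosinophil peroxidase, fell to 5.50, 5.02 and 5.27 with metformin, against 6.81, 6.65 and 6.20 in controls (-1.29 ± 0.15, adjusted p = 4.38e-07). GATA2, a transcription factor of progenitors, eosinophils and basophils, fell by -0.65 ± 0.10 (adjusted p = 5.15e-05). GATA1 (-0.05 ± 0.10, adjusted p = 0.796) and CPA3 (-0.21 ± 0.12, adjusted p = 0.201) did not pass. Of the 6 tested genes on the primary granule list, 3 fell: AZU1, at the threshold, LYZ (lysozyme, -0.48 ± 0.11, adjusted p = 0.00247) and IGLL1 (-0.68 ± 0.10, adjusted p = 2.99e-05). IGLL1 encodes a surrogate light chain of B-cell precursors and is no granule protein, and without it 2 of 5 fell. Of 5 genes that activate, inhibit or store granule proteins, 2 fell: CTSC, the peptidase that activates PRTN3 and CTSG, by -0.31 ± 0.08 (adjusted p = 0.00466), and CALR, a chaperone of MPO folding, by -0.33 ± 0.07 (adjusted p = 0.00214).

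Of 6 tested neutrophil maturation genes, 3 rose in HL60. MGAM, the maltase-glucoamylase found in mature neutrophils, reached 5.92, 6.09 and 5.90 with metformin, against 5.02, 4.88 and 4.89 in controls (1.04 ± 0.09, adjusted p = 1.16e-08). S100P, a calcium-binding protein, rose by 0.81 ± 0.09 (adjusted p = 5.21e-07) and CSF3R, the receptor for G-CSF, by 0.64 ± 0.10 (adjusted p = 5.17e-05). FPR2 (-0.02 ± 0.11, adjusted p = 0.928), CXCR2 (-0.17 ± 0.14, adjusted p = 0.414) and ANPEP (0.07 ± 0.11, adjusted p = 0.673) did not pass there. CXCR1, FPR1 and MME of this list stayed under 4.02 in every group and were not tested. Of 6 tested specific and gelatinase granule genes, 0 rose and 0 fell in HL60, with a list median of -0.14. LTF, CEACAM8, OLFM4, CHIT1 and PGLYRP1 of that list stayed under 4.02 in every group. Maturation of the cells was not tested. Among 8 transcription factors, GFI1, a repressor that promotes neutrophil fate, rose by 0.37 ± 0.08 (adjusted p = 0.0021), EGR1 by 0.71 ± 0.19 (adjusted p = 0.00622) and MYB by 0.33 ± 0.10 (adjusted p = 0.0194). SPI1 fell by -0.34 ± 0.11 (adjusted p = 0.0238). MYB lost its call without HL60 control C or HL60 metformin A, and SPI1 without HL60 control A, HL60 control B or HL60 metformin C. CTSS, a protease gene of the monocyte list, rose by 0.52 ± 0.11 (adjusted p = 0.000715) and COASY, the last enzyme of coenzyme A synthesis, by 0.31 ± 0.08 (adjusted p = 0.00768).

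**Figure D4:**
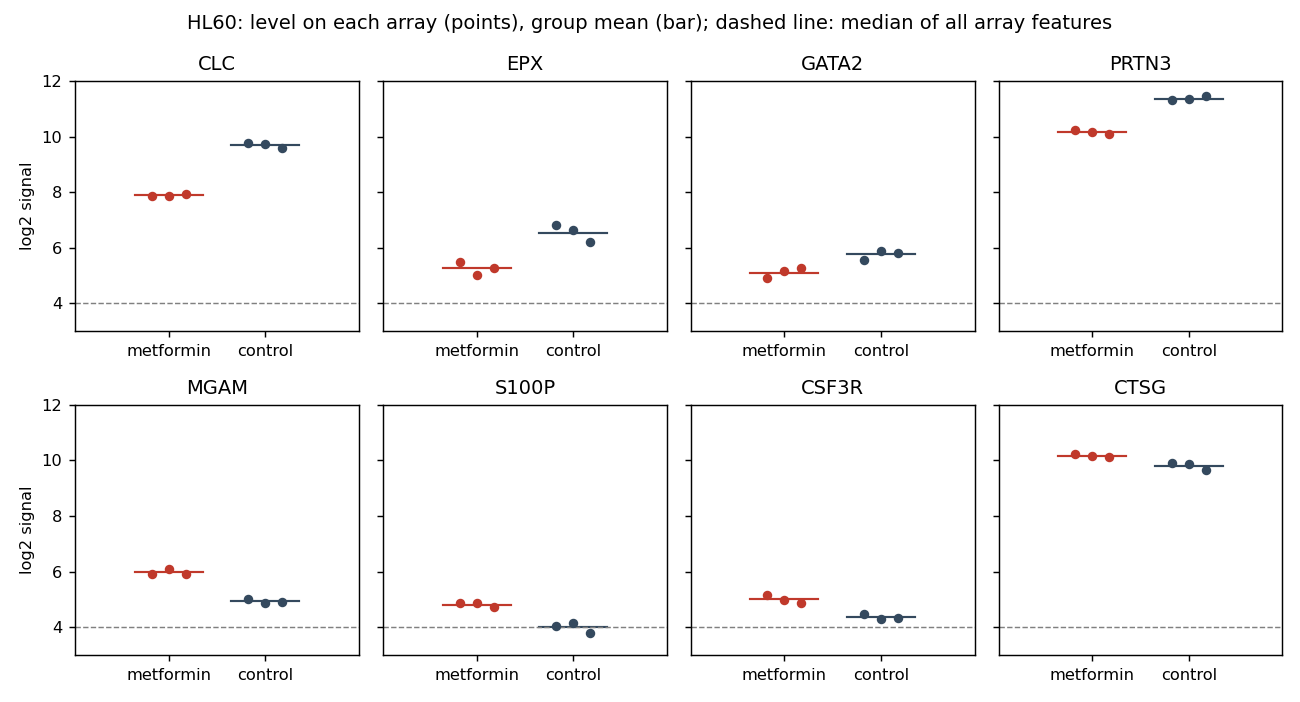
Log2 signal (vertical axis) of 8 genes on the 3 metformin and 3 control arrays of HL60, with a bar at each mean and a dashed line at 4.02. CLC, EPX, GATA2 and PRTN3 in the upper row are lower with metformin, and MGAM, S100P, CSF3R and CTSG in the lower row are higher, with no overlap of arrays in any panel.

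In MOLM14, 4 of 50 list genes fell, against 2.57% of all genes, and 0 rose by limma at the adjusted threshold, against 2.48%. At an unadjusted p under 0.05 limma gave 7 lower and 4 higher. Those that fell were 2 of 8 tested monocyte and macrophage genes, 1 of 4 eosinophil and basophil genes and 1 protease inhibitor. On the monocyte list FCN1, S100A9, CD68, CD86 and KLF4 were not called. CTSS of that list was higher without overlap of arrays, and did not pass (0.25 ± 0.11, adjusted p = 0.191). CSF1R fell to 5.41, 5.37 and 5.21 with metformin, against 6.11, 5.97 and 5.89 in controls (-0.66 ± 0.11, adjusted p = 0.000412). S100A8, a subunit of calprotectin, fell by -0.65 ± 0.11 (adjusted p = 0.000704), and SLPI, an inhibitor of neutrophil serine proteases, by -0.74 ± 0.12 (adjusted p = 0.000485). EPX was at 3.39 with metformin and 4.02 in controls, just under the median of all features, and its fall of -0.63 ± 0.15 (adjusted p = 0.00962) was lost without MOLM14 control B or MOLM14 metformin A. CSF3R (0.34 ± 0.10, adjusted p = 0.0502) and GFI1 (0.27 ± 0.08, adjusted p = 0.0673) missed the threshold. The count of higher genes was 2 without HL60 control C and 1 without HL60 control A, HL60 metformin A, KG1a control A, KG1a control C or U937 metformin A.

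In U937, 2 list genes rose and 8 fell, against 7.46% and 9.74% of all genes. Lower genes were FPR2, a formyl peptide receptor, which fell to 5.42 with metformin against 6.09 in controls (-0.66 ± 0.11, adjusted p = 0.000222), and 2 genes of specific granules. These were CEACAM6 (-0.78 ± 0.15, adjusted p = 0.000647) and the collagenase MMP8 (-0.69 ± 0.11, adjusted p = 0.000168), both under 4.02 with metformin. Both entered the fit only through control U937 (means 4.73 and 4.44), the group from which the fall is measured, so these 2 calls carry little weight. S100P rose by 0.36 ± 0.09 (adjusted p = 0.00848, and 0.0553 in a fit of the 6 U937 arrays alone). The monocyte factor IRF8 fell by -0.36 ± 0.10 (adjusted p = 0.0165) and lost its call without U937 control A or U937 metformin A. S100A9 fell by -0.50 ± 0.14 (adjusted p = 0.0159) and lost it without U937 control C, metformin A or metformin C. The other 4 calls were near the threshold: CTSS rose by 0.31 ± 0.11, EGR1 fell by -0.54 ± 0.19, and PANK4 and PPCDC of coenzyme A synthesis each fell by -0.27 ± 0.09, with adjusted p between 0.0452 and 0.0491. In leave-one-array-out fits these calls were lost in 15 of 24 for CTSS, 12 for EGR1, 17 for PANK4 and 11 for PPCDC. EGR1 in U937 rested mainly on metformin C: metformin arrays read 6.13, 5.69 and 4.93, against 6.16, 6.09 and 6.13 in controls, the groups overlapped, and without metformin C the change was -0.22 (adjusted p = 0.364). The difference in EGR1 change between lines passed (F test, adjusted p = 0.0147, and at most 0.0381 with any 1 array left out). Leaving out 1 array at a time gave 1 to 4 higher and 4 to 8 lower genes. The lower count was 4 without U937 control A or U937 metformin A, and 5 without U937 metformin C, HL60 metformin B, HL60 metformin C, KG1a control C or MOLM14 metformin B. The higher count was 4 without HL60 control C and 1 without any of 14 other arrays, of which 5 were from U937.

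In KG1a, where every member lay under 4.02, 2 list genes rose and 1 fell, against 0.818% and 1.67% of all genes. CTSS rose by 0.54 ± 0.11 (adjusted p = 0.00558), CRISP3, a specific granule protein, by 0.56 ± 0.12 (adjusted p = 0.015), and CPA3, a mast cell carboxypeptidase, fell by -0.53 ± 0.12 (adjusted p = 0.0143). Without KG1a metformin A none of the 3 passed. CRISP3 was also lost without KG1a control B or KG1a control C, and CPA3 without KG1a control B, KG1a control C or KG1a metformin B.

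Across the 8 group means, the genes most like each member were found by Pearson's r, as a description with no test. For PRTN3 these were PYCARD (r = 0.996), the adaptor of inflammasomes, CNN2 (0.995) and SPI1 (0.994), and for CTSG USP15 (0.998), CNN2 (0.997) and SRGN (0.995), the proteoglycan core of granules. MPO was most like GPR27 (0.997), LRP6 (0.995) and ANKRD18A (0.994), and CLC most like HSD11B2 (0.998), ELOVL4 (0.998) and PEG10 (0.995). MNDA was followed by LHFPL6 (0.992), ATRN (0.989) and PNKD (0.987), and VNN1 by TMEM45A (0.969), NPTX2 (0.930) and DLGAP1-AS3 (0.913). These points share 4 lines, so a gene switched on in the same lines scores high whatever its change with metformin.

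Of the whole data set, array medians lay between 3.99 and 4.08. The narrowest spreads were in HL60 control C and U937 control C (interquartile ranges 1.90 and 1.99, against 2.09 to 2.31 for the other arrays), and U937 metformin A correlated less with its group than the other U937 metformin arrays did. Without these 3 arrays the member changes given above moved by at most 0.12 (log2). Markers of other cell types were named for 3 of 12 genes (PF4, PECAM1 and KRT18), whose summed level was 14.61 to 15.11 in metformin and 14.75 to 15.12 in control HL60, and 18.68 to 19.06 in metformin and 18.68 to 19.32 in control MOLM14. None of the 3 passed in any line, and T-cell, B-cell and erythroid markers were not analysed here.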

How the data were processed

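Total RNA of 4 cell lines was hybridised to Affymetrix arrays (250 ng per array, per the labels' protocols), 3 arrays for each of 8 groups. The deposited table holds log2 expression values of 53617 features, which the authors processed with Partek, per the submitters' processing notes. The sources used here do not state the background correction, normalization or genome build, and the log2 scale was read from the values (1.88 to 14.2). Of the features, 16098 carry 1 gene symbol and 37519 are unnamed here. All 16098 matched RefSeq names, and the feature with the highest mean stood for each of 14884 genes.

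Genes with at least 1 group mean of 4.02 or more (10641) were fitted with limma 3.58.1 in R 4.3.3 as 8 group means over 24 arrays. Benjamini-Hochberg adjustment covered all 10641 genes, with a threshold of 0.05, and an F test compared the metformin change between lines. The script was tested on simulated data. The members and gene lists were chosen with earlier results of these data known. Genes named are the members, the listed genes that passed, the 3 most like each member, and chromosomal neighbours. Same-letter arrays deviated together weakly at most (r between -0.06 and 0.15 over 12 pairs), and letters were not used as pairs. Still, 7 of 12 metformin arrays were most like the control of their own letter, including each in HL60. Pairing within a line was not tested. Promoters are from RefSeq, GRCh38.p14.

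Alternatives were quantile normalization, centring on array medians, other filters, a trend in limma's moderation, a fit per line, a letter block, a threshold of 0.01 and leaving out each array.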

Additional observations from a re-analysis of the deposited data

Results flagged for a closer look

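The metformin change differed between the 4 lines, by limma's F test with p adjusted over 10641 genes, for 14 of the genes examined. The adjusted p was 6.14e-06 for MGAM, 0.000218 for EPX, 0.000723 for S100P, 0.00455 for FPR2 and 0.00462 for CSF1R. It was 0.00773 for SLPI, 0.0103 for GATA2, 0.0107 for CEACAM6, 0.0124 for CRISP3 and 0.0132 for CD38. It was 0.0147 for EGR1, 0.016 for IGLL1, 0.0175 for S100A8 and 0.0218 for MMP8. With any 1 array left out, an alternative chosen after seeing the data, 9 of the 14 passed each time. CD38 and GATA2 missed the threshold without HL60 metformin A (0.0563 and 0.0538), CRISP3 without KG1a control C (0.0526) and S100A8 without MOLM14 metformin A (0.0593). MMP8 missed it without U937 control A, control B, metformin A or metformin B (up to 0.0867). Most of the 14 are under or near 4.02 in lines where they did not change. This holds for FPR2, CEACAM6 and MMP8 outside U937, MGAM outside HL60, CRISP3 outside KG1a, and EPX in KG1a and U937. It holds too for SLPI and S100A8 in HL60 and KG1a, and for S100P in KG1a and MOLM14. GATA2 and IGLL1 are so in MOLM14 and U937, and EGR1 in KG1a. CEACAM6 and MMP8 reached 4.02 only in control U937.

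PRTN3 stood out because every metformin array lay above the controls in KG1a (0.10) and below them in HL60 (-1.21), MOLM14 (-0.26) and U937 (-0.38), in log2 units. KG1a values are under 4.02, and this difference between lines was not tested. Groups of 3 arrays are too small for a check of single outlying arrays.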

How the results depend on the processing

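Of 764 alternative values for the members, 760 stayed on their side of the threshold or, where untested, moved by less than the spread between arrays. A reversal was scored only for called changes and for untested changes larger than that spread, and 0 were found. CTSG in MOLM14 ranged between -0.05 and 0.01 and was not scored as reversed. Leaving out an array of another line, the filters, the moderation trend, the fit per line and the letter block cannot move a change. Most values, of members and listed genes, thus could not alter in size or direction. The fall of MNDA in U937 missed the threshold in 3, given with the result, and CLC in MOLM14, under 4.02 throughout, ranged between 0.10 and 0.35. Of 35 calls of listed genes, 20 passed in every alternative run, and 0 of 1118 values reversed. Quantile normalization gave 13 lower genes in HL60 and 4 higher in U937. Centring, or no filter on low values, gave 1 higher in U937, and a stricter filter gave 2 higher in MOLM14 and 5 in U937. The replicate block gave 1 higher in MOLM14. With it the PRTN3 change in U937 is -0.38 by design, since every group holds each letter once, and only its limma adjusted p moved (0.00156). The block is shared by the 4 lines, so it does not test pairs within a line. Of 12 metformin arrays, 7 deviated most like the control array of their own letter. A fit per line gave 1 higher in KG1a, 1 higher in MOLM14, and 0 higher and 4 lower in U937. A threshold of 0.01 gave 1 higher and 0 lower in KG1a, 1 higher and 3 lower in U937, and 6 genes that differed between lines. Without the 3 arrays that stand apart, chosen after seeing the data, 2 were higher in MOLM14 and 1 in U937. Leaving out 1 array at a time gave 7 to 9 higher and 6 to 8 lower genes in HL60, 0 to 3 higher and 0 to 1 lower in KG1a, 0 to 2 higher and 3 to 5 lower in MOLM14, 1 to 4 higher and 4 to 8 lower in U937, and 12 to 15 that differed between lines. The cause of these shifts was not tested. No member has another array feature, so that alternative was not run. Signals under 4.02 limit what KG1a, and VNN1 and CLC outside 1 line each, can show.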

Other observations

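CD38, an ectoenzyme that consumes NAD and appears on HL60 cells as they differentiate, was named after its values were seen. Of 4 tested line markers it was the only 1 called in HL60, where limma called 15.5% of all genes higher. CD34 (-0.14 ± 0.13, limma adjusted p = 0.467), KIT (-0.04 ± 0.12, limma adjusted p = 0.825) and CD4 (0.06 ± 0.10, limma adjusted p = 0.689) did not pass there. Differentiation of the cells was not tested. CD38 rose in HL60, at 5.66 with metformin and 4.49 in controls (1.17 ± 0.15, limma adjusted p = 2.12e-06). It also rose in U937, at 7.93 with metformin and 7.36 in controls (0.57 ± 0.15, limma adjusted p = 0.00798), a call lost without the 3 arrays that stand apart (adjusted p = 0.0648). The CD38 changes in MOLM14 (0.40 ± 0.15, limma adjusted p = 0.121) and in KG1a (0.21 ± 0.15, limma adjusted p = 0.551) did not pass.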
